A study of Mus musculus with 24 samples.

Results

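The 10 serotonin receptor genes examined here were Htr1a, Htr1b, Htr2a, Htr2c, Htr3a, Htr4, Htr5a, Htr5b, Htr6 and Htr7. They were picked by name from the 46983 genes of the deposited read count table, and all 10 were among the 16209 genes with enough reads to test (at least 10 counts in each of the 6 mice of at least one group). The counts came from bulk mRNA sequencing of hippocampal punches, 1 mm wide and taken from dorsal and ventral hippocampus, of 24 female mice labelled C57BL/6, with 6 mice in each of 4 groups. Fkbp5lox/lox mice carried loxP-flanked Fkbp5 alleles and no Cre recombinase. Their Fkbp5Nex littermates also carried Nex-Cre, which acts in forebrain glutamatergic neurons from the embryo on but spares the dentate gyrus, so that both genotypes share the floxed alleles and no group carried Cre without them. Mice of each genotype were raised either under control conditions or with limited bedding and nesting material, a form of early life stress (ELS), from postnatal day 2 to 9. Behaviour was tested from 6 months of age, and brain imaging followed, so that all groups had this history when tissue was taken.

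Serotonin reaches the hippocampus through axons of the raphe nuclei, and its effect on a cell depends on the receptors that the cell carries. Receptors of the 5-HT1 and 5-HT5 families couple to Gi/o proteins and lower cyclic AMP, the 5-HT2 family couples to Gq and phospholipase C, and 5-HT4, 5-HT6 and 5-HT7 couple to Gs and raise cyclic AMP. The 5-HT3 receptor, in contrast, is a cation channel opened by serotonin. In the hippocampus, 5-HT1A is known as an inhibitory receptor of principal neurons, 5-HT3A marks a class of interneurons, and 5-HT2C is also made in large amounts by the choroid plexus.

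The series asks whether FKBP51, the product of Fkbp5, shapes the lasting effect of ELS through TCF4, a factor that binds E-box motifs. For that reason the 250 bases before each RefSeq start site (GRCm38.p6) were searched on both strands for the E-box letters CANNTG, and for ACANNNTGT, the core letters of a glucocorticoid response element. RefSeq promoters were matched for 7 of the 10 genes. An E-box was present in the windows of 2 of them, Htr5a and Htr6, against 66.2% of the 32851 mouse promoter windows searched in the same way, and ACANNNTGT was present in none of them, against 5.84% of all windows. The promoter of Htr2a is shown because it had the largest log2 fold change in the main test described below, which did not pass adjustment. That of Htr2c is shown for its relation to dentate gyrus markers between mice. Those of Htr5a and Htr6 are shown because they hold the motif, which is in capitals. Each runs 5′ to 3′ on the strand of its gene.
Htr2a (chr14:74640624-74640839, plus strand): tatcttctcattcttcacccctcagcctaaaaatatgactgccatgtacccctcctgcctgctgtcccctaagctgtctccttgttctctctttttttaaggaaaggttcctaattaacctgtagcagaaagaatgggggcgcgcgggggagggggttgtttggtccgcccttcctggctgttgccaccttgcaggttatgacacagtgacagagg
Htr2c (chrX:146962263-146962512, plus strand): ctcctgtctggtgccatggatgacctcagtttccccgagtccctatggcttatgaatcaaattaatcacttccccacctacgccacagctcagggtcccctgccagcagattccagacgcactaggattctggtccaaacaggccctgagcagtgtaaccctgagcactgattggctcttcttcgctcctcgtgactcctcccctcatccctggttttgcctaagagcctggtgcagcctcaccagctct
Htr5a (chr5:27841697-27841946, plus strand): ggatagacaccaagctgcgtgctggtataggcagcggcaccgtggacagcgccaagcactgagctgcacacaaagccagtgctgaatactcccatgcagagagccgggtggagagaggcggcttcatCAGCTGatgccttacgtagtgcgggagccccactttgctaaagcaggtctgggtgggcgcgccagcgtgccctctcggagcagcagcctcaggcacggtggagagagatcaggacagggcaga
Htr6 (chr4:139075571-139075820, minus strand): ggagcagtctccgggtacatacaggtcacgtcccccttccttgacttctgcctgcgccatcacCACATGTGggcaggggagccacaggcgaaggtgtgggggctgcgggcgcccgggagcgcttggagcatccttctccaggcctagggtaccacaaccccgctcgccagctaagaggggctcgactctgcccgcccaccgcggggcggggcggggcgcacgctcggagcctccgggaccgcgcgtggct
The Htr5a match is CAGCTG (present in 13.0% of all windows), with its first base at -123 from the start site. In Htr6 the overlapping matches CACATG and CATGTG begin at -187 and -185. A second Htr6 window, from a start site within the gene, holds CAGGTG at -168 and is not shown. The Htr2a stretch is shorter because it stops where the GENCODE gene model begins. A match describes letters only, and binding was not measured.

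Transcript levels of the receptors differed widely. Levels between genes are given as CPM (counts as a share of the library, scaled by the trimmed mean of M-values, TMM) per kilobase of exon. Htr3a had the highest level, 11.1 ± 2.18 CPM per kilobase (SD, n = 24 mice), at the 72.9 percentile of tested genes. Htr2c followed with 8.16 ± 3.44 and Htr1a with 8.07 ± 1.47 CPM per kilobase. These last levels could not be ordered, as Htr2c was above Htr1a in 13 of 24 mice.

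Htr7 had 5.11 ± 1.11 and Htr4 3.80 ± 0.470 CPM per kilobase, in the middle of the order. Htr5a, with 2.67 ± 0.327, and Htr6, with 2.63 ± 0.353 CPM per kilobase, were level, Htr5a being higher in 12 of 24 mice. Htr5b had 2.01 ± 0.814, Htr2a 1.40 ± 0.386 and Htr1b 0.841 ± 0.272 CPM per kilobase, and Htr1b stood at the 16.6 percentile of tested genes. Each of the remaining neighbours in the order kept it in 17 to 22 of the 24 mice.

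**Figure D1:**
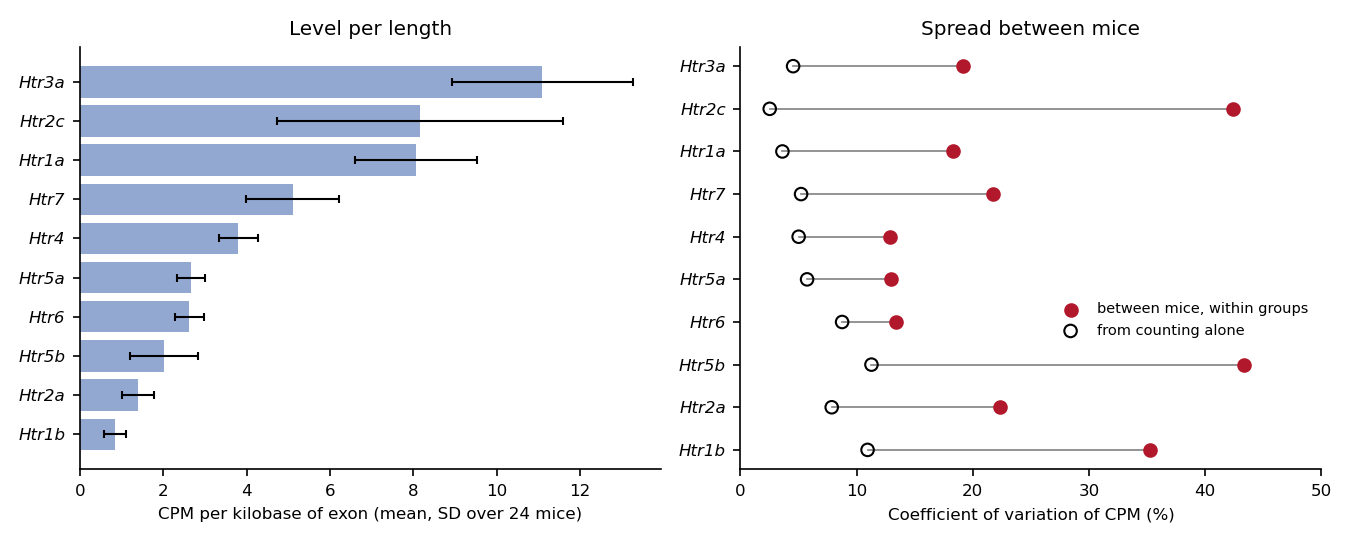
Left, level of each receptor gene in CPM per kilobase of exon, as mean and SD over 24 mice. Right, coefficient of variation of CPM between mice of the same group (filled) and the part that read counting alone gives (open), in percent. Htr3a has the highest level, and Htr5b and Htr2c vary most between mice.

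None of the 10 genes was too low to test, but their depth differed. Htr2c had 456 to 2918 counts per mouse and Htr1a 456 to 1330. Htr2a had 84 to 268 counts, Htr6 99 to 182 and Htr1b 40 to 151. Htr5b was the thinnest, with 7 to 158 counts, and 23 of 24 mice reached 10 counts. The lowest count was in Fkbp5lox/lox ELS mouse 8. Htr1b also shares 852 exon bases with the antisense gene D430036J16Rik, and since the sources used here do not state whether counting used strand, its values are uncertain.

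Spread between mice exceeded counting error for all 10 receptors, by 1.53 times for Htr6 and 16.9 times for Htr2c. Among mice of the same group, the coefficient of variation of Htr2c was 42.4%, where counting alone gives 2.52%. Htr1a (18.3% against 3.61%), Htr3a (19.2% against 4.53%) and Htr7 (21.7% against 5.22%) varied by 5.08, 4.24 and 4.16 times their counting error. Htr5b varied by 43.3% against 11.3% from counting, Htr1b by 35.2% against 10.9% and Htr2a by 22.4% against 7.85%. In percent the smallest spreads were those of Htr4, which varied by 12.8% against 5.01%, Htr5a with 12.9% against 5.73% and Htr6 with 13.3% against 8.75%. Between its lowest and highest mouse, Htr5b ranged over 27.9 times, from 0.259 CPM (7 counts) to 7.22 CPM. Htr2c ranged over 7.25 times, from 20.7 to 150.2 CPM, whereas Htr4 ranged over 1.60 times, from 14.4 to 23.1 CPM.

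As a check of the labels, Fkbp5 had 47.7 to 63.4 CPM in the 12 Fkbp5lox/lox mice and 8.71 to 26.5 CPM in the 12 Fkbp5Nex mice, with no overlap. Total counts were 18347283 to 26555623 per mouse. The hippocampal label was checked with marker lists, and all 6 CA1 markers and all 8 dentate gyrus markers were detected in every mouse. Their shares varied, and so did those of neighbouring tissue. The 11 choroid plexus markers summed to 26.6 CPM in the lowest mouse and 4791 CPM in the highest, with Kcnj13 at 0 counts in 5 mice, Folr1 in 2 and Slc4a5 in 1. In bulk tissue, fewer cells that express a receptor and less RNA per cell cannot be told apart.

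Group differences were tested in a model of all 24 mice that held 4 group means and 5 surrogate variables (estimated axes of unlabelled variation). The test was the quasi-likelihood test of edgeR, with p-values adjusted by Benjamini and Hochberg's method over the 16209 genes. No receptor passed an adjusted p of 0.02 in any of 7 contrasts. For Fkbp5Nex against Fkbp5lox/lox over both rearing conditions, 0 of 10 receptors were called, where 0.117% of all tested genes were. The corresponding shares of all genes were 0.0494% for genotype under control rearing and 0.0123% for genotype after ELS. For ELS within Fkbp5lox/lox, within Fkbp5Nex and over both genotypes, and for the interaction, 0.0% of all genes were called. In the 4 comparisons of single groups, none of the 10 receptors had non-overlapping CPM, which 0.0925% of all genes had for ELS in Fkbp5lox/lox, 0.0679% for ELS in Fkbp5Nex, 0.16% for genotype under control rearing and 0.173% for genotype after ELS. DESeq2's Wald test also called 0 of the 10 in every contrast.

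At an unadjusted p under 0.05 the count was 3 of 10 for genotype over both rearing conditions, 1 higher and 2 lower, against 11.5% of all genes (5.04% higher and 6.44% lower). It was 2 of 10 under control rearing (8.69% of all genes) and 2 of 10 after ELS (6.59%). For ELS in Fkbp5lox/lox mice it was 2 of 10 (4.86%), for ELS in Fkbp5Nex mice 1 of 10 (2.8%), for ELS over both genotypes 0 of 10 (3.56%), and for the interaction 1 of 10 (4.02%). These counts were not steady. Each run without a mouse also estimated the surrogate variables anew, 4 to 5 of them. Without Fkbp5Nex control mouse 12 the counts were 0 for genotype over both rearing conditions, 1 under control rearing and 4 for the interaction. Leaving out each of the 24 mice in turn gave 0 to 4 for genotype over both rearing conditions, 1 to 3 under control rearing, 2 to 3 after ELS, 0 to 2 for ELS in either genotype, 0 to 1 for ELS over both genotypes and 0 to 4 for the interaction. Without surrogate variables the counts were 1 for genotype over both rearing conditions, 0 under control rearing, 1 after ELS and 0 for ELS in Fkbp5lox/lox mice. The median absolute log2 fold change of the receptors was 0.15 under control rearing and 0.09 after ELS for genotype, beside 0.06 over all genes in both. For ELS it was 0.14 in Fkbp5lox/lox and 0.06 in Fkbp5Nex mice, beside 0.06 and 0.05 over all genes. The genes set beside the receptors were not matched to them for level or counts, so these medians do not show that receptors differed more.

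The 95% intervals describe the spread left after the 5 surrogate variables, and they do not cover the choice of covariates. Under control rearing the interval of Htr2c was -0.46 to -0.07, but its value ran from -1.01 to -0.03 over the settings. The intervals were narrowest for Htr5a and Htr1a. Their half-widths in the 4 within-genotype and within-rearing contrasts were 0.15 to 0.16 on the log2 scale. The surrogate variables took up 74.7% and 83.5% of the within-group variance of these 2 genes. The other intervals are given on the same terms. Intervals were widest for Htr5b, with half-widths of 0.53 to 0.56, and for Htr1b, with 0.46 to 0.50. For Htr4, Htr6, Htr7 and Htr3a the intervals in these contrasts reached from -0.32 to 0.50 at most.

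**Figure D2:**
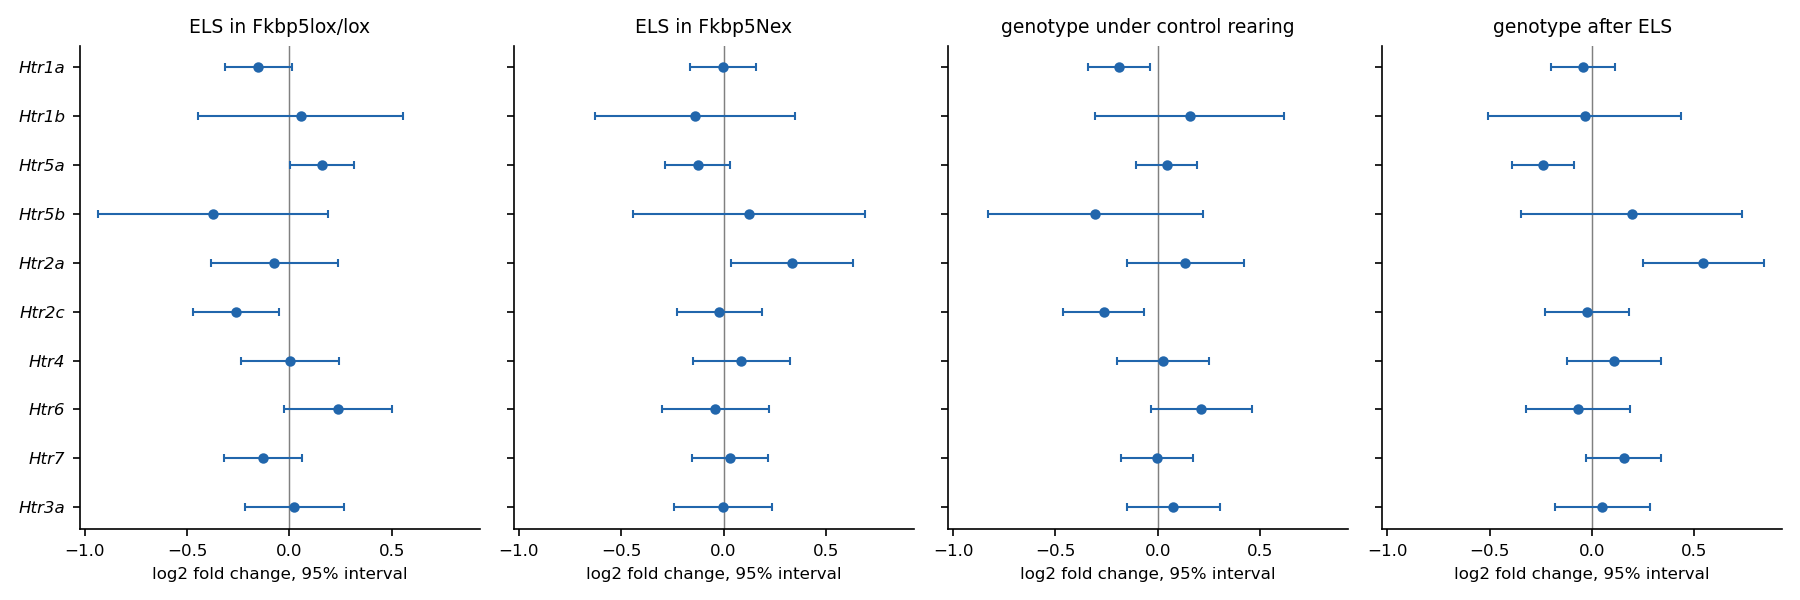
Log2 fold change of each receptor gene with its 95% interval (horizontal axis) in 4 contrasts from edgeR's quasi-likelihood fit with 5 surrogate variables, 24 mice. The ELS panels give ELS minus control, and the genotype panels Fkbp5Nex minus Fkbp5lox/lox. Htr2a after ELS lies farthest from 0, at 0.55.

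Htr2a, a Gq-coupled excitatory receptor, had the largest log2 fold change of any receptor in the 7 contrasts of the model with 5 surrogate variables, and its highest group mean was that of Fkbp5Nex ELS mice (10.4 ± 1.60 CPM, SD, n = 6). The lowest, median and highest mouse had 8.11, 10.3 and 12.5 CPM in Fkbp5Nex ELS, and 5.66, 6.18 and 8.76 CPM in Fkbp5lox/lox ELS. The Fkbp5Nex control mice had 3.84, 7.12 and 9.62 CPM, and the Fkbp5lox/lox control mice 5.56, 7.19 and 9.18 CPM. All 6 Fkbp5Nex ELS mice were above the means of both Fkbp5lox/lox ELS and Fkbp5Nex control mice, but the ranges overlapped in every pair of groups.

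After ELS, the fold of Htr2a in Fkbp5Nex over Fkbp5lox/lox mice was 1.46 (log2 fold change 0.55, SE 0.14, 95% interval 0.25 to 0.84, unadjusted p = 0.000906), which did not pass adjustment (adjusted p = 0.591, edgeR). The exact two-sided permutation test of log2 CPM gave a difference of 0.63 and p = 0.00433, adjusted to 0.173 over 40 tests. The smallest p that the 924 splits of 12 mice allow is 0.00216. Within Fkbp5Nex, ELS minus control was 0.34 (SE 0.14, unadjusted p = 0.0291, adjusted p = 0.9996, edgeR), and 0.56 with no surrogate variables. The exact permutation test gave 0.61 and p = 0.0216, adjusted to 0.433. The interaction was -0.41 (95% interval -0.83 to 0.00, edgeR), coded as the ELS effect in Fkbp5lox/lox minus that in Fkbp5Nex.

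Over both rearing conditions the genotype difference of Htr2a was 0.34 (SE 0.10, unadjusted p = 0.00221, adjusted p = 0.161, edgeR). This value was not steady. It was 0.06 in the run without Fkbp5Nex control mouse 12, in which the surrogate variables were also estimated anew. That mouse had 8.41 CPM, within the 3.84 to 9.62 CPM of its group. The difference after ELS was 0.35 without that mouse, and unadjusted p stayed under 0.05 with each of the 24 mice left out in turn. With scores of dentate gyrus and choroid plexus markers as covariates in place of the surrogate variables, the difference after ELS was 0.35 and that over both rearing conditions -0.07.

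**Figure D3:**
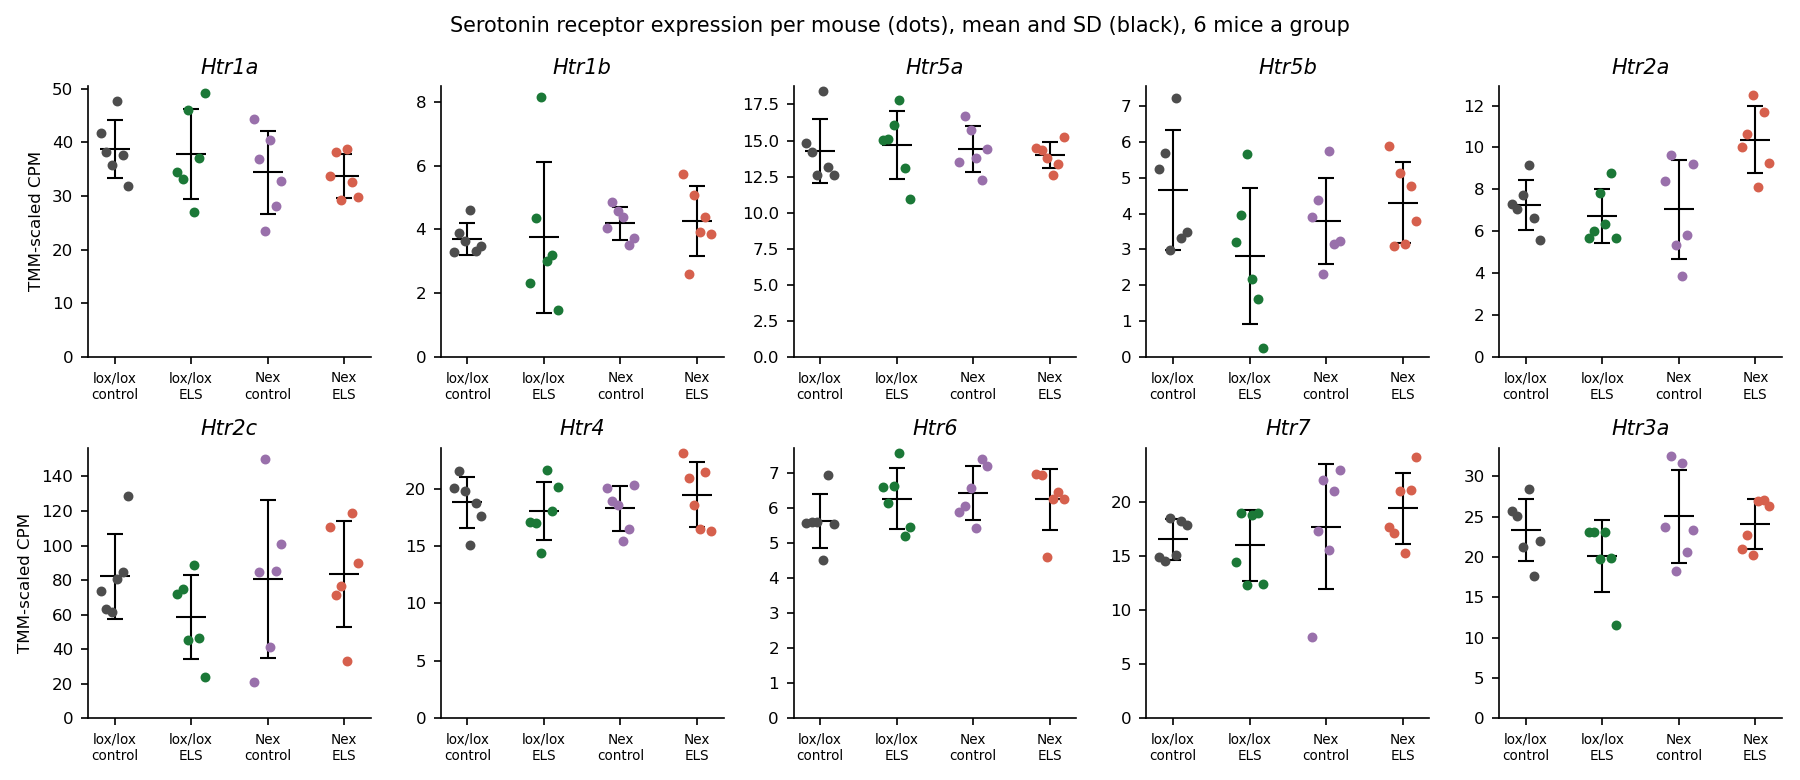
TMM-scaled CPM of the 10 receptor genes in each mouse (dots) by group, with mean and SD in black and 6 mice per group. Each panel has its own vertical axis from 0. Htr2a sits highest in the Fkbp5Nex ELS group at 8.11 to 12.5 CPM, and the groups overlap in every panel.

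Htr2c, the other Gq-coupled receptor, had the most counts and the largest spread in CPM. The lowest, median and highest mouse had 61.6, 77.2 and 128.8 CPM in Fkbp5lox/lox control, and 23.8, 59.2 and 88.8 CPM in Fkbp5lox/lox ELS. In Fkbp5Nex control they had 20.7, 84.8 and 150.2 CPM, and in Fkbp5Nex ELS 33.4, 83.3 and 119.0 CPM. Every group spanned a wide range and all pairs overlapped.

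In the model the log2 fold change of Htr2c in Fkbp5Nex against Fkbp5lox/lox mice under control rearing was -0.26 (SE 0.09, unadjusted p = 0.0109, adjusted p = 0.416, edgeR). For ELS in Fkbp5lox/lox mice it was also -0.26 (SE 0.10, unadjusted p = 0.0176, adjusted p = 0.954, edgeR). For ELS over both genotypes the value was -0.14 (SE 0.07, unadjusted p = 0.0666, adjusted p = 0.9995, edgeR), the smallest p of any receptor in that contrast. None of these passed adjustment.

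These values depended on the covariates. The 5 surrogate variables took up 95.6% of the within-group variance of Htr2c, the most of any receptor, against a median of 56.8% over all genes. The genotype difference over both rearing conditions was -0.14 (SE 0.07, unadjusted p = 0.0462, adjusted p = 0.430, edgeR) with them and 0.24 without them. It was -0.01 with 2 surrogate variables and -0.66 with the dentate gyrus and choroid plexus scores as covariates. Under control rearing the difference was -0.03 without surrogate variables, and -1.01 with the dentate gyrus and choroid plexus scores in their place. Leaving out Fkbp5lox/lox control mouse 74 gave -0.14 under control rearing and -0.08 over both rearing conditions. Without Fkbp5lox/lox ELS mouse 4 the latter was -0.09. Without control mouse 34, the lowest of its group at 61.6 CPM, the ELS difference in Fkbp5lox/lox mice was -0.16. It was -0.49 without surrogate variables. The ELS difference over both genotypes was -0.09 without mouse 34, -0.22 without surrogate variables and -0.02 with the scores. Runs without a mouse also estimated the surrogate variables anew, so they do not isolate the part of that mouse.

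Among the Gi/o-coupled receptors, Htr1a had a lowest, median and highest mouse of 31.8, 38.0 and 47.6 CPM in Fkbp5lox/lox control and 23.5, 34.9 and 44.5 CPM in Fkbp5Nex control. After ELS the values were 26.9, 35.7 and 49.2 CPM in Fkbp5lox/lox and 29.3, 33.2 and 38.7 CPM in Fkbp5Nex mice. The ranges overlapped throughout. In the model the log2 fold change of Htr1a in Fkbp5Nex against Fkbp5lox/lox mice was -0.19 (SE 0.07, unadjusted p = 0.0153, adjusted p = 0.459, edgeR) under control rearing and -0.12 (SE 0.05, unadjusted p = 0.0347, adjusted p = 0.407, edgeR) over both rearing conditions. Neither passed adjustment. In the run without Fkbp5Nex control mouse 12 these values were -0.09 and -0.04. That mouse had the highest Htr1a of its group, and the run also estimated the surrogate variables anew. The 2 effects were not separated.

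Dentate gyrus and choroid plexus markers moved with genotype in the same fit. For Fkbp5Nex against Fkbp5lox/lox over both rearing conditions, all 8 dentate gyrus markers were lower, 4 of them past an adjusted p of 0.02, with a median log2 fold change of -0.54. These calls cannot all hold without Fkbp5Nex control mouse 12 or without surrogate variables, when 2 and 3 of all tested genes were called in this contrast. All 6 choroid plexus markers that could be tested were lower as well, 1 past the threshold, with a median of -1.001. All 9 thalamus markers were higher, none past the threshold, with a median of 0.41. For ELS in Fkbp5Nex mice, all 6 choroid plexus markers (median 0.81) and all 8 dentate gyrus markers (median 0.25) were higher, none past the threshold. Summed dentate gyrus markers were 352 to 1164 CPM in Fkbp5lox/lox and 173 to 794 CPM in Fkbp5Nex mice, and no marker of that list was at 0. Their part in the differences of Htr1a, Htr2a and Htr2c was not tested.

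Htr5a, coupled to Gi/o, had small and steady levels. The lowest, median and highest mouse had 12.6, 13.7 and 18.4 CPM in Fkbp5lox/lox control and 10.96, 15.1 and 17.8 CPM in Fkbp5lox/lox ELS. The Fkbp5Nex values were 12.2, 14.1 and 16.7 CPM in control and 12.6, 14.1 and 15.3 CPM in ELS mice. The groups lay on top of each other.

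In the model the log2 fold change of Htr5a in Fkbp5Nex against Fkbp5lox/lox mice after ELS was -0.24 (SE 0.07, unadjusted p = 0.00345, adjusted p = 0.591, edgeR). The interaction was 0.28 (SE 0.10, unadjusted p = 0.0122, adjusted p = 0.999, edgeR) and the ELS difference in Fkbp5lox/lox mice 0.16 (SE 0.08, unadjusted p = 0.0493, adjusted p = 0.954, edgeR). None passed adjustment. Without surrogate variables these values were -0.07, 0.08 and 0.04, and with 2 surrogate variables -0.10, 0.07 and 0.04. With the dentate gyrus and choroid plexus scores as covariates they were -0.32, 0.02 and 0.02.

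Htr1b, an autoreceptor on serotonin axon terminals that other neurons also make, and Htr5b, a rodent receptor that is a pseudogene in humans, had no contrast with an unadjusted p under 0.05. Htr1b had medians of 3.55, 3.10, 4.22 and 4.15 CPM in Fkbp5lox/lox control, Fkbp5lox/lox ELS, Fkbp5Nex control and Fkbp5Nex ELS mice. Htr5b had medians of 4.37, 2.69, 3.58 and 4.29 CPM in the same order. In the Fkbp5lox/lox ELS group Htr5b reached from 0.259 to 5.68 CPM, so that this group overlapped all others.

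The Gs-coupled receptors and the channel gene did not pass an unadjusted p of 0.05 in any contrast either. Htr4, known for raising excitability of principal neurons, stayed between 14.4 and 23.1 CPM in all 24 mice, with group medians of 17.6 to 19.7 CPM. Htr6 had group medians of 5.59 to 6.39 CPM. Htr7 had group medians of 16.5 to 19.3 CPM, and Htr3a of 21.5 to 24.5 CPM.

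Between mice of the same group, several receptors varied together with region markers, and in different directions. Each of 8 region or cell type scores was the mean z-score of the log2 CPM of its markers, and relations were computed on deviations from group means over the 24 mice, with 100000 permutations of mice within groups. Of 80 relations, 13 passed an adjusted p of 0.05 by Pearson's r, and 9 of these also by Spearman's rho. The labels give no sequencing batch, so no relation could be recomputed within batches.

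Htr2c fell as the dentate gyrus score rose (r = -0.930, permutation p = 1e-05, adjusted p = 0.0004, rho = -0.887 with p = 1e-05). That p is the smallest these permutations can give, and r was -0.875 without the 2 mice farthest from the median score. The lowest Htr2c of 3 groups was found in the mouse with the highest dentate gyrus score of its group, at 20.7 CPM in Fkbp5Nex control mouse 12, 23.8 CPM in Fkbp5lox/lox ELS mouse 8 and 33.4 CPM in Fkbp5Nex ELS mouse 60. Htr2c also rose with the choroid plexus score (r = 0.755, permutation p = 0.00014, adjusted p = 0.00187, rho = 0.812 with p = 2e-05, and r = 0.689 without 2 mice). The dentate gyrus and choroid plexus scores were themselves related (r = -0.761, permutation p = 9e-05, adjusted p = 0.00182 over 28 pairs of scores, rho = -0.844 with p = 3e-05, and r = -0.730 without 2 mice).

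Htr1a ran the opposite way. It rose with the dentate gyrus score (r = 0.803, permutation p = 6e-05, adjusted p = 0.0012, rho = 0.773 with p = 0.00018) and r was 0.735 without 2 mice. It fell with the choroid plexus score (r = -0.845, permutation p = 2e-05, adjusted p = 0.000533, rho = -0.860 with p = 2e-05) and r was -0.792 without 2 mice. Htr7, a Gs-coupled receptor, followed Htr2c and fell with the dentate gyrus score (r = -0.799, permutation p = 0.00012, adjusted p = 0.00187, rho = -0.691 with p = 0.00093, and r = -0.664 without 2 mice). Fkbp5Nex control mouse 12, with the highest dentate gyrus score of its group, had the lowest Htr7 of all, 7.55 CPM.

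Htr5b, Htr1b and Htr3a went with CA1 markers instead. Htr5b rose with the CA1 score (r = 0.885, permutation p = 1e-05, adjusted p = 0.0004, rho = 0.812 with p = 3e-05), and r was 0.744 without 2 mice. For Htr1b r was 0.766 (permutation p = 0.00036, adjusted p = 0.00411, rho = 0.590 with p = 0.00566), and 0.459 without 2 mice. For Htr3a r was 0.700 (permutation p = 0.00287, adjusted p = 0.0238, rho = 0.594 with p = 0.00709), and 0.649 without 2 mice. Fkbp5lox/lox ELS mouse 8, whose summed CA1 markers of 98.8 CPM were the lowest of all, had the lowest Htr5b (0.259 CPM), Htr1b (1.48 CPM) and Htr3a (11.6 CPM) of the 24 mice.

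**Figure D4:**
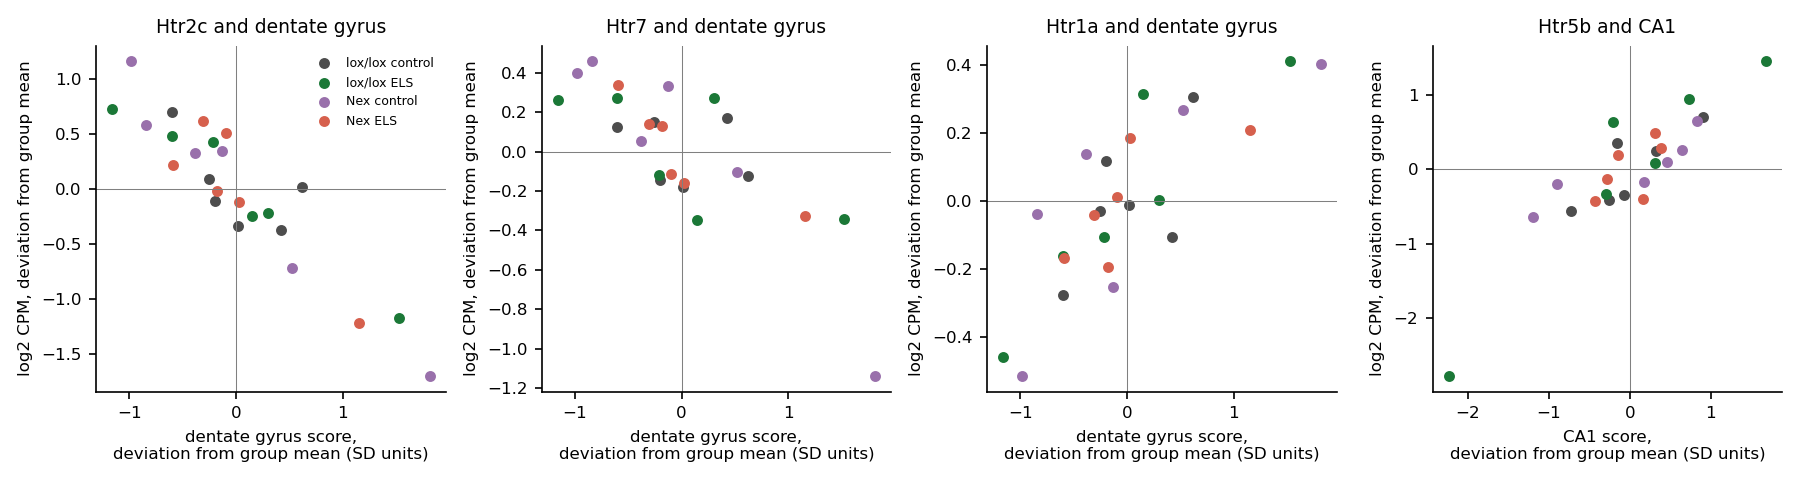
Deviation of each mouse from its group mean in log2 CPM of a receptor (vertical) against the deviation of its region score in SD units (horizontal), coloured by group, 24 mice. Htr2c and Htr7 fall with the dentate gyrus score (r = -0.930 and -0.799), Htr1a rises with it (r = 0.803), and Htr5b rises with the CA1 score (r = 0.885).

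The other relations past the threshold were weaker. Htr1a rose with the neocortex score (r = 0.660, permutation p = 0.00158, adjusted p = 0.0158, rho = 0.624 with p = 0.00331). Htr5a rose with the interneuron score (r = 0.626, permutation p = 0.00297, adjusted p = 0.0238, rho = 0.546 with p = 0.0112), Htr7 with the CA2 and CA3 score (r = 0.618, permutation p = 0.00342, adjusted p = 0.0249, rho = 0.523 with p = 0.0116) and with the choroid plexus score (r = 0.589, permutation p = 0.00606, adjusted p = 0.0373, rho = 0.603 with p = 0.00411). Htr5b fell with the thalamus score (r = -0.596, permutation p = 0.00464, adjusted p = 0.0309, rho = -0.497 with p = 0.0216). Without the 2 farthest mice these r were 0.542, 0.482, 0.460, 0.559 and -0.537. The neocortex score was itself related to the choroid plexus score (r = -0.684) and the dentate gyrus score (r = 0.565). The thalamus score was related to the CA1 score (r = -0.714). Whether the relations of Htr1a to neocortex and of Htr5b to thalamus are separate from those above was not tested. Htr2a, Htr4 and Htr6 had no relation past the threshold, and for Htr2a and the dentate gyrus r was 0.01.

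Of the 45 pairs of receptors, 5 passed an adjusted p of 0.05, and they repeated the split between regions. Htr2c and Htr7 rose together (r = 0.783, permutation p = 0.00038, adjusted p = 0.0057, rho = 0.651 with p = 0.00215). Htr1a fell as either of them rose, with r = -0.775 for Htr2c (permutation p = 0.00011, adjusted p = 0.00315, rho = -0.726 with p = 0.00045) and r = -0.753 for Htr7 (permutation p = 0.00014, adjusted p = 0.00315, rho = -0.778 with p = 9e-05). Htr5b rose with Htr1b (r = 0.769, permutation p = 0.00392, adjusted p = 0.0353, rho = 0.578 with p = 0.00761) and with Htr3a (r = 0.706, permutation p = 0.0026, adjusted p = 0.0292, rho = 0.612 with p = 0.00291). Each pair was recomputed without the 2 mice most distant from the median of a single gene of the pair, after removal of group means. That gene was Htr2c, Htr1a, Htr1a, Htr1b and Htr3a in turn. The r were then 0.628, -0.717, -0.752, 0.453 and 0.428, so that the pairs with Htr5b leaned on the mice left out.

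**Figure D5:**
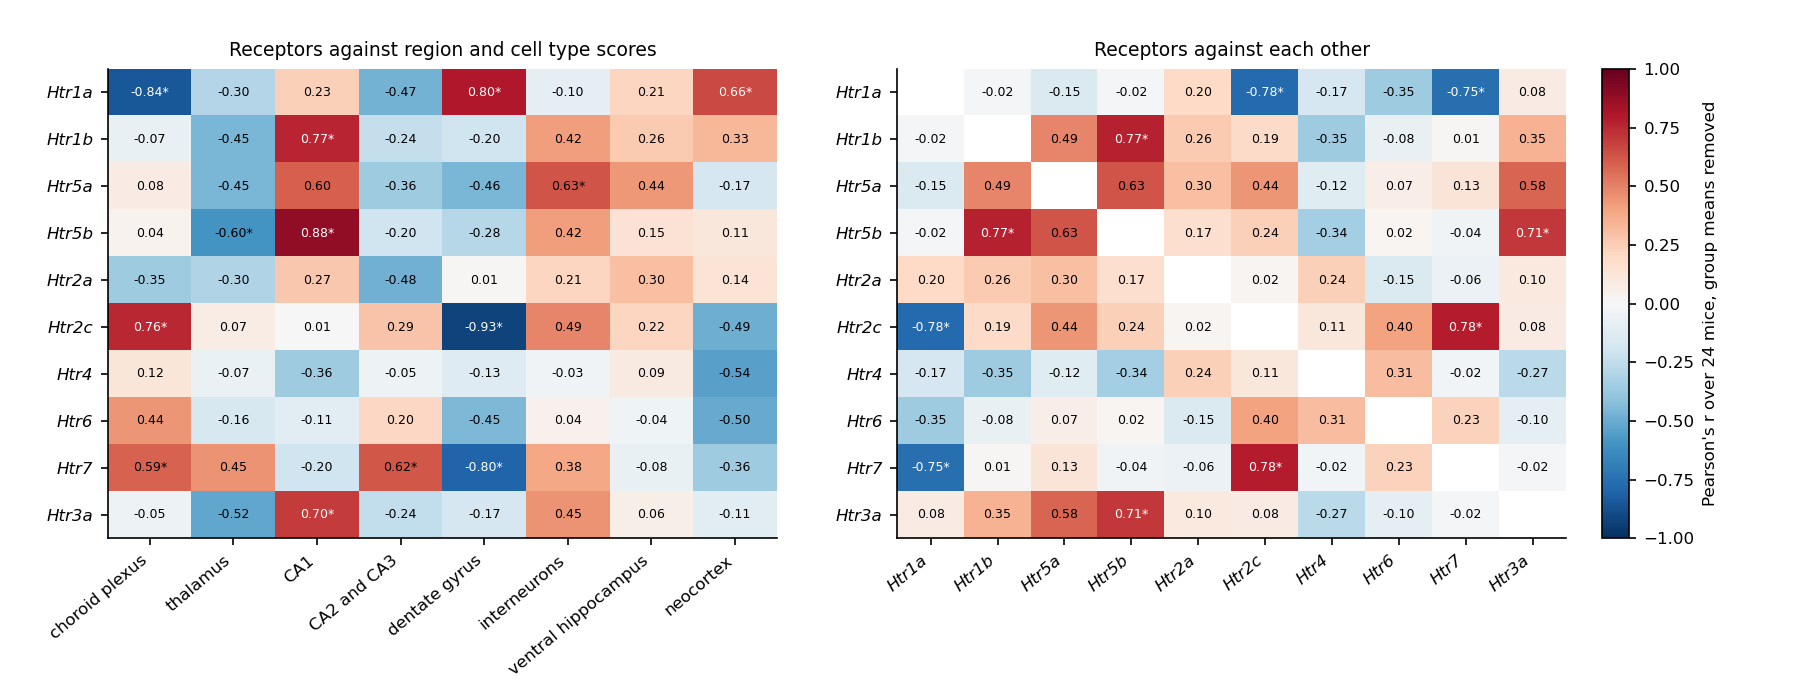
Pearson's r over 24 mice after removal of group means, between each receptor gene and 8 region or cell type scores (left) and between receptor genes (right), from -1 (blue) to 1 (red). Stars mark an adjusted permutation p under 0.05, 13 of 80 on the left and 5 of 45 pairs on the right. Htr1a, Htr2c and Htr7 carry most stars on the dentate gyrus and choroid plexus columns, and Htr5b, Htr1b and Htr3a on CA1.

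The genes most like each receptor across the 24 mice, by Pearson's r of the same deviations among tested genes, differed accordingly. For Htr1a they were led by Itga8 (r = 0.929), for Htr2c by Igfbp3 (r = 0.942), Ano4 (r = 0.932) and Adam19 (r = 0.929), and for Htr7 by Spock1 (r = 0.913). For Htr5b they were led by Ankrd63 (r = 0.910) and Cpne8 (r = 0.905), and Gpr161, one of the CA1 markers, was also among the nearest (r = 0.893). Ankrd63 also led for Htr1b (r = 0.814). For Htr3a the list held the CA1 markers Fibcd1 (r = 0.801) and Mpped1 (r = 0.755) and the interneuron neuropeptide gene Tac2 (r = 0.781). Htr2a was most like Fam205c (r = 0.898), and Htr5a most like Ptpru (r = 0.886). The nearest genes to Htr4 (Sde2, r = 0.722) and Htr6 (Gm42894, r = 0.665) were less alike, and these receptors also had the smallest share of their within-group variance in the surrogate variables, 21.9% and 25.3%.

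Other genes of serotonin signalling were measured in the same mice, and none passed an adjusted p of 0.02 in any contrast (edgeR). Of the 4 other receptor genes listed, Htr1f had 8 to 59 counts and was tested, while Htr1d (2 to 14 counts), Htr2b (0 to 4) and Htr3b (0 to 2) were too low. Of 9 genes of synthesis, packaging, uptake and breakdown, 7 were tested, and the serotonin transporter gene Slc6a4 was too low at 0 to 7 counts. At an unadjusted p under 0.05 for genotype over both rearing conditions, 1 of these 7 was higher and 2 were lower. Slc29a4, a low-affinity monoamine transporter, had a log2 fold change of -0.28 (SE 0.07, adjusted p = 0.0843, edgeR) and had 17.2 to 56.4 CPM. Of 23 transducers (G protein subunits, cyclases, phospholipases and channels), 3 were higher and 1 was lower, including Gnas, the Gs alpha subunit, at 0.19 (SE 0.05, adjusted p = 0.133, edgeR). Of 9 receptor partners and RNA editing enzymes, 1 was higher, Adarb1, whose product edits Htr2c pre-mRNA, at 0.13 (SE 0.03, adjusted p = 0.113, edgeR). Over all genes, 5.04% were higher and 6.44% lower in this contrast.

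The positions of the genes, from GENCODE vM21 on GRCm38, place all 10 on different stretches of 9 chromosomes. Htr2a lies at chr14:74640840-74709494 with 3 exon blocks, and Htr2c at chrX:146962513-147197277 with 8 exon blocks and 8 small RNA genes within its bounds, none sharing exon bases. Htr1a is a single exon at chr13:105443639-105448122. Htr5a lies at chr5:27842149-27855088, Htr5b at chr1:121509842-121528465, Htr6 at chr4:139061108-139075570, Htr7 at chr19:35958734-36057507 and Htr4 at chr18:62324204-62496577. Htr1b, at chr9:81628291-81633828, and Htr3a, at chr9:48899213-48911099, share a chromosome.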

How the data were processed

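Read counts, not normalized, were deposited by the authors for each gene after paired-end bulk mRNA sequencing. Their provider removed reads with adaptors, poly-N or low quality, aligned the rest with HISAT2 2.0.5 and counted with featureCounts 1.5.0-p3. The build, annotation and strandedness are not given in the sources used here. The study removed 1 library of a larger set as an outlier, and all 24 hippocampal libraries were used here.

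Groups came from the labels. Of 46983 genes, 46488 matched a GENCODE vM21 position, and 16209 were tested, having 10 or more counts in all mice of one group or more. The model in edgeR 4.0.16 held 4 group means and 5 surrogate variables from svaseq (sva 3.50.0), with TMM scaling, the quasi-likelihood test and an FDR of 0.02. DESeq2 1.42.0 was run as an alternative, as were other size factors, filters and covariates, an FDR of 0.05, and each mouse left out. Runs without a mouse repeated the filter and estimated the surrogate variables anew, 4 to 5 of them. Single differences used exact permutation tests, and relations 100000 permutations within groups, in Python 3.11.15 with scipy 1.17.1. Log2 CPM used a prior count of 1. Levels per kilobase used the union of exons. The edgeR p-values set a difference against the spread between these mice that is left after the covariates. The permutation p-values set it against the spread between mice without covariates.

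Fold changes are given for receptors with an unadjusted p under 0.05 or the smallest p of a contrast, and for the Htr2a interaction in addition, chosen after its value was seen, and the 5 most alike genes were ranked. The receptors, gene lists and markers were chosen with earlier results of these data known. Covariates of 2 surrogate variables or of dentate gyrus and choroid plexus scores were added after seeing the data.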

Additional observations from a re-analysis of the deposited data

Results flagged for a closer look

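In 3 of the 40 combinations of receptor and group, 1 mouse stood apart from the other 5 by Dixon's criterion at the 95% level. Chance alone gives such a mouse in about 1 group in 20. Htr2c was 128.8 CPM in Fkbp5lox/lox control mouse 74, where the next highest mouse had 84.9 CPM. Htr3a was 11.6 CPM in Fkbp5lox/lox ELS mouse 8, where the next lowest mouse had 19.8 CPM. Htr6 was 4.62 CPM in Fkbp5Nex ELS mouse 58, where the next lowest mouse had 6.27 CPM.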

How the results depend on the processing

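In each of the 7 contrasts, 0 receptors were called under every alternative run, DESeq2's Wald test on all 24 mice among them, and 0 to 0 with each of the 24 mice left out in turn in edgeR. The genotype difference of Htr2c over both rearing conditions turned from -0.14 to 0.24 on the log2 scale without surrogate variables, and that of Htr2a from 0.34 to -0.068 with dentate gyrus and choroid plexus scores as covariates, a setting chosen after seeing the data. Of all 80 relations with region scores, 13 passed the adjusted p of 0.05 in the main setting and 13 with DESeq2's size factors. Without the 2 mice farthest from the median score, where fewer mice entered each test, 7 of the 80 passed. These 7 include Htr6 with the neocortex score (r = -0.614, permutation p = 0.00407), which was not among the 13 of the main setting. The cause of the changes with covariates was not tested. No paired analysis was possible because the labels give no litter and the groups share no mouse numbers. In the paper, dams were assigned to ELS or control together with their litters. Mice of the same litter are therefore not independent for the ELS contrasts, whereas all tests here treated each mouse as independent. Depth limits Htr5b and Htr1b most, with counting errors of 11.3% and 10.9% per mouse.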
